A study of Mus musculus with 21 samples.

Results

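Small leucine-rich proteoglycans are secreted matrix proteins built around a row of leucine-rich repeats, and 9 of their genes were followed here through infarcted mouse hearts and cultured cardiac fibroblasts. The 9 genes, Dcn, Bgn, Lum, Fmod, Ogn, Omd, Prelp, Aspn and Chad, were taken by symbol from the 53801 gene identifiers of the count tables, and each matched 1 identifier.

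The series asked whether fibroblast activation protein, the membrane protease encoded by Fap, regulates cardiac repair after myocardial infarction (MI). Hearts were sampled at day 7 in the zone bordering the infarct, as the labels name it, and total RNA was sequenced. The FAPI group held 4 wild-type hearts with MI plus FAPI, a name taken to mean Fap inhibitor because the title of the series speaks of inhibition. The FapKO group held 4 hearts of the FapKO genotype with MI, the MI group 4 wild-type hearts with MI, and the sham group 3 wild-type hearts with a sham operation. All 4 groups share the day and the labelled tissue, and all but sham share the infarct. The sources used here do not give the inhibitor compound and dose, the strain, the age or the extent of the knockout. In a separate experiment, mouse cardiac fibroblasts spent 7 days in a 5% hydrogel of modified gelatin (GelMA). The co-culture group (3 libraries) grew with endothelial cells of heart and lung and was sorted as CD45-CD31-Pdgfra+ cells before lysis. The 3D-culture group (3 libraries) grew alone and was not sorted, and partner cells cannot be told apart from sorting, since both differ between the groups. Fibroblast libraries are labelled as biological replicates. For hearts the labels are silent on whether 1 library stands for 1 animal, and every p-value therefore rests on the spread among these libraries, which may be technical.

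These proteins bind fibrillar collagen and set how fibrils form, space and fuse, and several also bind growth factors of the TGF-beta family. Decorin, biglycan and asporin make up class I, lumican, fibromodulin, prolargin and osteomodulin class II, osteoglycin belongs to class III, and chondroadherin to a separate class without typical side chains. In heart muscle, fibroblasts are known as their main source, and fibroblasts lay down the collagen scar that replaces muscle lost to infarction.

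Most of the genes lie in tandem groups, given here on GRCm38 (mm10) with the GENCODE M21 annotation. Chromosome 10 carries Dcn (97479609 to 97518143, plus strand) and Lum (97565128 to 97572703, plus strand), followed by Kera and Epyc, within 203 kb. Chromosome 13 carries Ecm2, Aspn (49544443 to 49567565), Omd (49582462 to 49592822) and Ogn (49608046 to 49624501), all on the plus strand, within 120 kb. Chromosome 1 carries Optc, Prelp (133910304 to 133921414, minus strand) and Fmod (134037254 to 134048277, plus strand) within 151 kb. Bgn lies on chromosome X (73483602 to 73495933, plus strand) and Chad on chromosome 11 (94565047 to 94569127, plus strand). All are protein-coding genes, counted over their exons. Prelp exons share 350 bases with the antisense gene Gm15851, which had 0 to 3 counts in any library, and Aspn exons share 7 bases with those of Cenpp on the opposite strand. Omd and Ogn also overlap Cenpp, and Chad overlaps Acsf2 on the opposite strand, with 0 shared exon bases. Whether reads from the introns of these genes entered the counts was not tested.

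Sequences of 300 bases around the gene start, 250 before and 50 after it, were found in the RefSeq promoter table (GRCm38.p6) for 7 of the 9 genes. Below are those of the 4 genes that differed most between MI and sham hearts, to set beside their changes. Capitals mark matches on either strand to 4 motifs. The TATA box was searched as TATAAA. The AP-1 site was searched with its letters TGANTCA. For the MCAT element of muscle genes the letters were GGAATG. The GC box was read as GGGCGG.
Chad, chr11:94564797-94565096, plus strand: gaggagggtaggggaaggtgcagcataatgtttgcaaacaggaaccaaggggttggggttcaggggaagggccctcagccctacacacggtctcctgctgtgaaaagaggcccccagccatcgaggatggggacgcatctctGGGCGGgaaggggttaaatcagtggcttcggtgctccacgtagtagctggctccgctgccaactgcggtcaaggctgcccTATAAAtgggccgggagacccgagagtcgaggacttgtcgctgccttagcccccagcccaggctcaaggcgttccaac
Fmod, chr1:134037004-134037303, plus strand: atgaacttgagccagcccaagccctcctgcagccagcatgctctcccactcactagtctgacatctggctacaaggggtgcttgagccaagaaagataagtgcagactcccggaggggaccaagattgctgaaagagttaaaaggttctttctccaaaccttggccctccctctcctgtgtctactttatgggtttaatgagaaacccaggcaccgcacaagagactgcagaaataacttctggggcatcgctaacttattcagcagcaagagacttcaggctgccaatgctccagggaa
Bgn, chrX:73483351-73483650, plus strand: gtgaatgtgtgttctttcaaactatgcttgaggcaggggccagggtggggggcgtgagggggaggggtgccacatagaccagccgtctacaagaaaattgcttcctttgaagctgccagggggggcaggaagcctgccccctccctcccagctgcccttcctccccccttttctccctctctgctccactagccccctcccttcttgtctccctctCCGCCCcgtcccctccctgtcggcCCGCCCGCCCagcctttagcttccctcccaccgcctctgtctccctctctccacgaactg
Aspn, chr13:49544193-49544492, plus strand: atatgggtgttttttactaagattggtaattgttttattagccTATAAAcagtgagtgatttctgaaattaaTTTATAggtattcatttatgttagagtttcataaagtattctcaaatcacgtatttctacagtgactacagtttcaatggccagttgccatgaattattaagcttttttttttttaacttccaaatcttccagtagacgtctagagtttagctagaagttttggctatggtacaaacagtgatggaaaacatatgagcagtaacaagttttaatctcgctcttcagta
Chad held a TATA box 28 to 23 bases before its start and a GC box further upstream. Bgn held 3 GC boxes on the reverse strand within 34 bases of its start, of which the last pair overlaps. Aspn held matches to the TATA box only 207 and 178 bases upstream, and the Fmod window held none of the 4 motifs. No motif was found in all 4 promoters. Of the 32851 promoters of this length in the table, 13.6% held the TATA box, 7.81% the AP-1 site, 14.7% the MCAT element and 35.7% the GC box. These matches are letters in a window and were not tested as sites.

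Library totals were 18474138 to 37287355 counts in hearts, 4735337 to 6346015 in co-culture and 12871240 to 15650221 in 3D-culture. Fap, the targeted gene, averaged 8.26 ± 1.65 CPM in FAPI hearts, 2.16 ± 0.257 in FapKO hearts, 11.2 ± 1.57 in MI hearts and 3.32 ± 0.578 CPM in sham hearts (CPM, counts scaled to library size with TMM factors, SD, n = 4, and n = 3 for sham). Cardiomyocyte markers summed to 30166 to 52826 CPM over 9 genes in FAPI hearts, 43500.5 to 51819.6 in FapKO hearts, 9948 to 30079 in MI hearts and 76054 to 87558 in sham hearts. A scaling by total counts in place of TMM moved the median log2 difference over all genes between MI and sham hearts to 1.23, against 0.14 with TMM. With total counts, 86.1% of called genes were higher in MI than in sham hearts, against 53.7% with TMM. For FAPI against MI hearts the share was 14.6% against 60.1%, and for FapKO against MI hearts 16.6% against 49.1%. Ratios between genes of 1 library do not depend on this choice, apart from the log ratios of scarce genes. Those hold a prior count that is itself scaled with the library. Ratios are given below beside the scaled values. In the cultures, the 3D-culture library of replicate 2 stood apart from the other 2, with 178 and 198 chi-square units per degree of freedom against 10.7 between those. In hearts, MI replicate 3 was at 124 and 130 from MI replicates 1 and 2, which were at 36.8 from each other, and at 69.0 from replicate 4. FAPI replicate 4 was at 100 and 108 from FAPI replicates 1 and 3, which were at 30.7 from each other, and at 40.8 from replicate 2.

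The length of a gene was the union of its annotated exons, 5838 bases for Dcn, 6099 for Bgn, 2448 for Lum and 2354 for Aspn. Read per length, the heart pool was led by decorin, asporin and lumican in all 4 groups. In mean CPM, Bgn stood ahead of Aspn and Lum in MI (1115, 764 and 688) and FapKO hearts (551, 481 and 415). It lay between Aspn and Lum in FAPI hearts (820, 792 and 529) and below Lum in sham hearts (188 and 241). Whether counts scale with length in these libraries was not tested. Of the summed per-length counts of the 9 genes, Dcn made up 31.4% ± 3.20 in FAPI hearts, 36.4% ± 2.24 in FapKO hearts, 29.3% ± 5.24 in MI hearts and 47.4% ± 2.85 in sham hearts (SD, n = 4, and n = 3 for sham). Aspn, which encodes asporin, held 28.5% ± 4.09 in FAPI, 22.7% ± 1.37 in FapKO, 23.7% ± 6.75 in MI and 14.1% ± 1.44 in sham hearts. Every infarcted heart had a lower decorin share and a higher asporin share than every sham heart. Bgn, the gene of biglycan, held 10.7% ± 0.550 in FAPI, 10.1% ± 1.28 in FapKO, 13.8% ± 1.27 in MI and 6.20% ± 0.660 in sham hearts. Lum stayed between 15.1% and 22.7% in every heart. At the other end, Fmod held at most 1.82%, Omd at most 0.326% and Chad at most 0.0910% of the pool in any heart. In TPM (counts per length scaled to a fixed total), sham hearts ran in the order Dcn, Lum, Aspn, Ogn, Bgn, Prelp, Fmod, Omd and Chad, and no neighbours in that order overlapped. In MI hearts Aspn stood after Dcn and ahead of Lum, and Bgn ahead of Ogn, but these neighbours overlapped between libraries, with Aspn at 419 to 1344 TPM and Lum at 544 to 813 TPM.

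**Figure D1:**
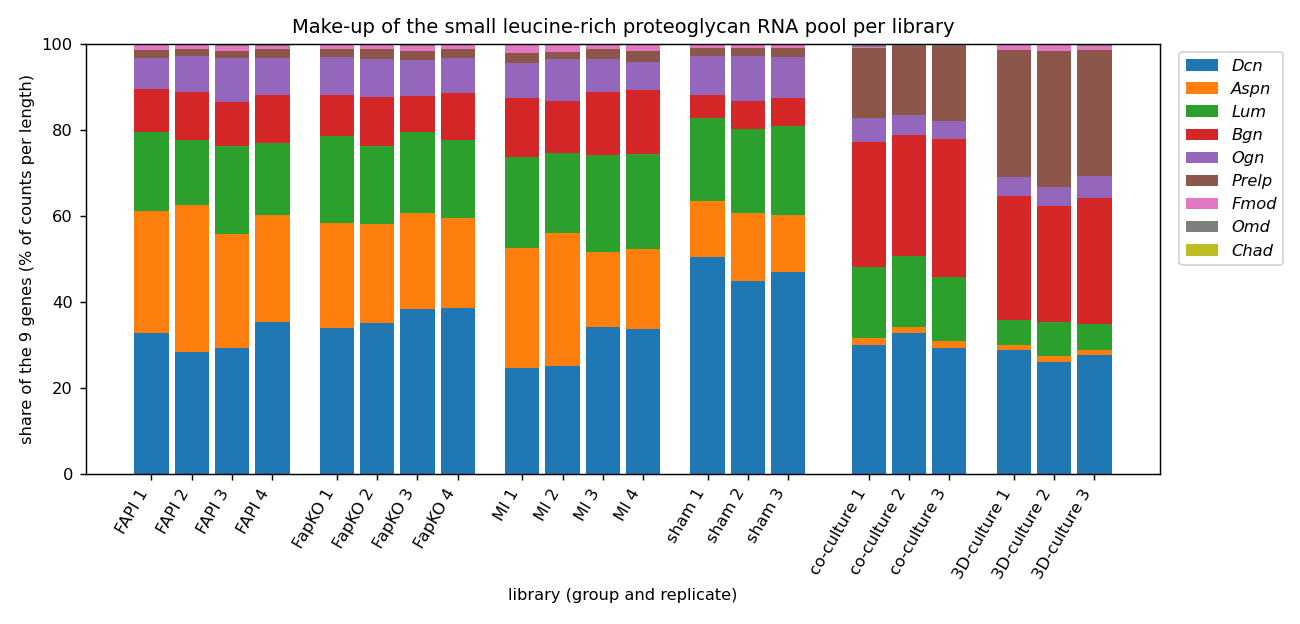
Share of each gene in the summed per-length counts of the 9 genes, in percent, for every heart and culture library, one bar per library grouped as FAPI, FapKO, MI, sham, co-culture and 3D-culture. Dcn takes 44.9% to 50.5% in sham hearts against 24.6% to 34.0% in MI hearts, and Prelp takes 29.1% to 31.7% in 3D-culture against 16.0% to 17.4% in co-culture.

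The comparison of MI with sham hearts asked what infarction does at day 7. All 9 genes were higher in MI hearts, and for every one of them each MI heart lay above each sham heart. Biglycan, fibromodulin, asporin and chondroadherin changed most, and decorin least. Across all 17064 genes tested, 37.1% were called higher (edgeR's quasi-likelihood test, adjusted p under 0.05) and 36.4% were higher without overlap. The median log2 fold change of the 9 genes was 1.59, against 0.14 for all genes tested. In the same comparison cardiomyocyte markers fell (9 of 9), while macrophage (8 of 8), activated fibroblast (6 of 6), adipocyte (5 of 5) and fibroblast markers (7 of 8, 1 lower) rose. Fibroblast markers summed to 9646 to 14700 CPM in MI and 2937 to 3309 CPM in sham hearts. That sum includes the collagen genes Col1a1 and Col1a2, which are also counted among the collagens below. Adipocyte markers summed to 135 to 271 CPM in MI and 12.9 to 31.5 CPM in sham hearts. The part of these markers in the changes was not tested. In bulk tissue, more cells of a type and more RNA per cell cannot be told apart.

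Among class I genes, Dcn encodes decorin, which binds collagen and TGF-beta. It had 2626, 2019, 2228 and 1969 CPM in FAPI hearts, 1776, 1822, 2105 and 1941 CPM in FapKO hearts, 2043, 2188, 2275 and 2497 CPM in MI hearts and 1384, 1320 and 1413 CPM in sham hearts. The 3 infarcted groups overlapped with each other and all lay above sham. MI exceeded sham by 0.71 on the log2 scale (SE 0.141, edgeR adjusted p = 0.00029), larger than that of 68.8% of genes. Bgn encodes biglycan, whose soluble form is known as a ligand of the receptors Tlr2 and Tlr4. It had 853, 831, 828 and 656 CPM in FAPI hearts, 526, 618, 491 and 572 CPM in FapKO hearts, 1202, 1098, 1017 and 1145 CPM in MI hearts and 156, 204 and 205 CPM in sham hearts. No 2 of the 4 groups overlapped, with MI highest, FAPI next, then FapKO, and sham lowest. Bgn was 5.92-fold higher in MI than in sham hearts (log2 2.57, SE 0.152, edgeR adjusted p = 1.56e-09), more than 96.3% of genes. Aspn encodes asporin, which carries an aspartate stretch in place of a sugar chain and binds collagen and TGF-beta. It had 924, 983, 815 and 560 CPM in FAPI hearts, 515, 479, 499 and 430 CPM in FapKO hearts, 934, 1095, 472 and 553 CPM in MI hearts and 145, 186 and 163 CPM in sham hearts. MI hearts split into a high pair (replicates 1 and 2) and a low pair (replicates 3 and 4), and the low pair lay within or near the range of FapKO hearts. The log2 fold change of MI over sham was 2.21 (SE 0.268, edgeR adjusted p = 1.81e-06).

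Among class II genes, Lum encodes lumican, which limits the thickness of collagen fibrils. It had 616, 451, 656 and 393 CPM in FAPI hearts, 444, 396, 433 and 386 CPM in FapKO hearts, 735, 689, 637 and 692 CPM in MI hearts and 221, 241 and 260 CPM in sham hearts. FAPI hearts spanned the space from FapKO to MI hearts, and sham hearts lay below all others. Fmod encodes fibromodulin, which shares a collagen site with lumican. It had 47.3, 39.4, 49.5 and 26.7 CPM in FAPI hearts, 24.8, 28.0, 37.5 and 25.9 CPM in FapKO hearts, 85.6, 74.9, 34.3 and 57.4 CPM in MI hearts and 8.93, 11.0 and 9.65 CPM in sham hearts. The MI heart of replicate 3 lay within the FAPI and FapKO ranges, and the other MI hearts above them. MI exceeded sham by 1.52 for Lum (SE 0.163, adjusted p = 4.79e-07) and by 2.67 for Fmod (SE 0.289, adjusted p = 4.93e-07) on the log2 scale (edgeR). Prelp encodes prolargin, which links basement membranes to collagen. It had 99.6, 72.0, 86.0 and 67.4 CPM in FAPI hearts, 60.8, 76.9, 71.1 and 66.6 CPM in FapKO hearts, 117, 99.4, 89.9 and 112 CPM in MI hearts and 31.2, 34.2 and 38.7 CPM in sham hearts. FapKO hearts lay below all MI hearts, while FAPI hearts overlapped with both. Omd encodes osteomodulin, best known from bone matrix, and was scarce. It had 7.10, 6.39, 9.27 and 6.90 CPM in FAPI hearts, 4.42, 4.87, 6.52 and 3.98 CPM in FapKO hearts, 7.21, 6.06, 7.47 and 6.13 CPM in MI hearts and 3.45, 2.81 and 3.38 CPM in sham hearts. FAPI and MI hearts overlapped, and sham hearts lay below all others. MI exceeded sham by 1.59 for Prelp (SE 0.147, adjusted p = 8.96e-08) and by 1.06 for Omd (SE 0.184, adjusted p = 7.97e-05) on the log2 scale (edgeR).

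Ogn encodes osteoglycin, a class III member also called mimecan. It had 251, 257, 337 and 213 CPM in FAPI hearts, 204, 199, 202 and 181 CPM in FapKO hearts, 295, 374, 229 and 219 CPM in MI hearts and 109, 135 and 129 CPM in sham hearts. FapKO hearts lay close together, below all FAPI and all MI hearts and above all sham hearts. MI exceeded sham by 1.17 for Ogn on the log2 scale (SE 0.183, edgeR adjusted p = 2.9e-05). Chad encodes chondroadherin, a cartilage protein that binds cells through integrins, and was at the edge of detection. Its raw counts were 32, 16, 48 and 23 in FAPI hearts, 13, 8, 34 and 10 in FapKO hearts, 55, 89, 34 and 33 in MI hearts and 3, 3 and 3 in sham hearts. Every infarcted heart had more Chad counts than every sham heart. Summed over libraries and scaled for depth, Chad was 8.36 times as frequent in MI as in sham hearts (95% interval 4.32 to 18.5, exact binomial, counting error only). The edgeR log2 fold change was 3.00 (SE 0.592, adjusted p = 0.000285) and depends on the prior count at such low counts.

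**Figure D2:**
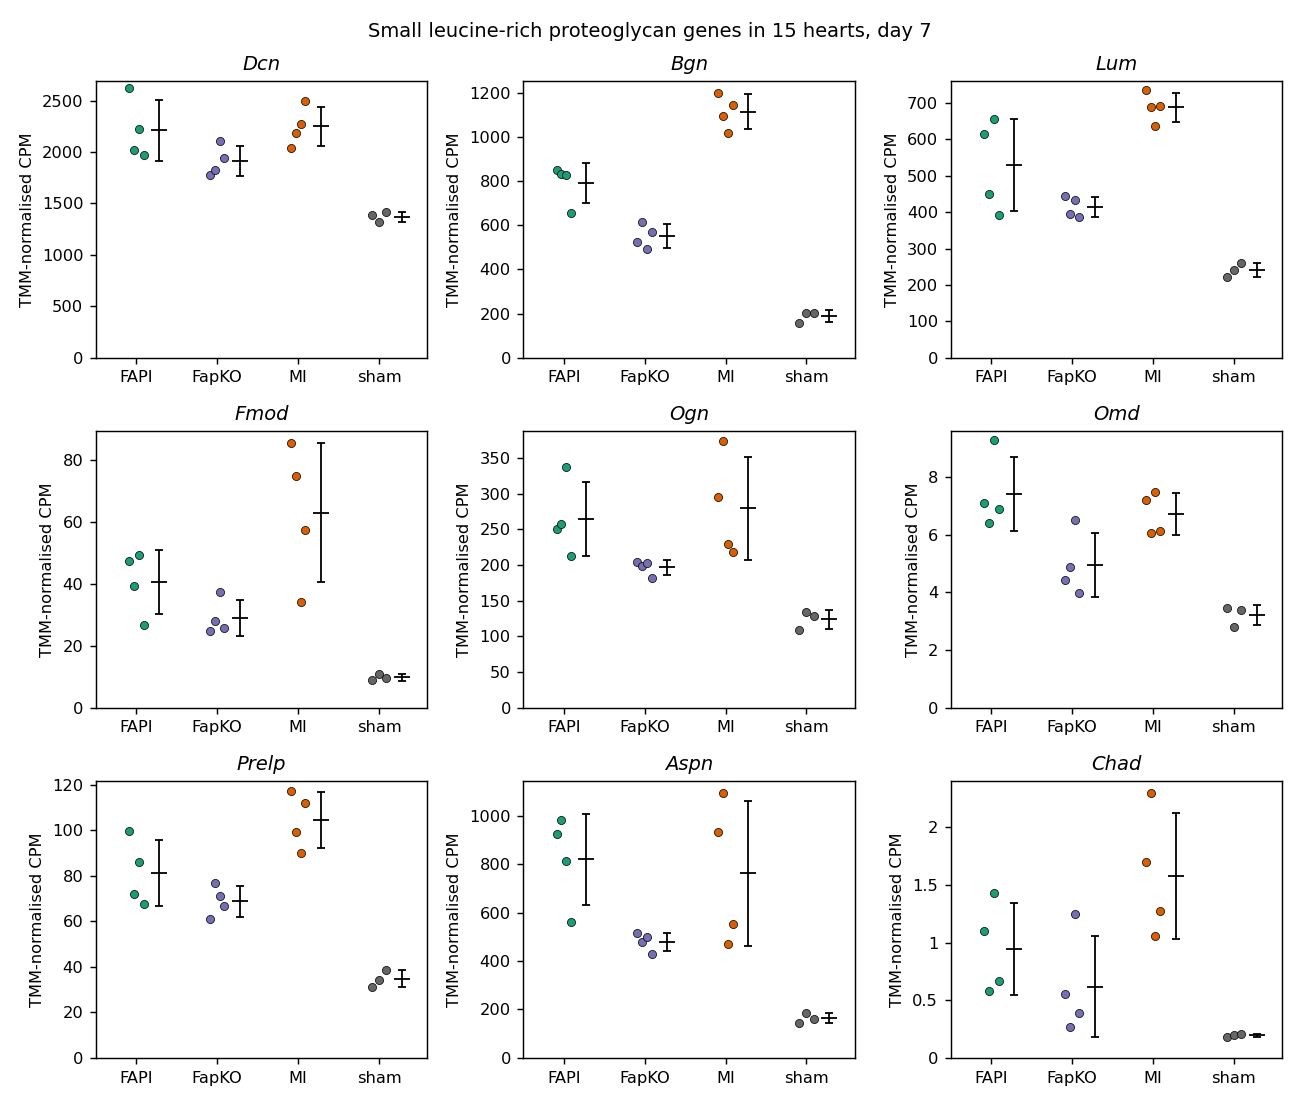
TMM-normalised CPM of each of the 9 genes in every heart, with groups in the order FAPI, FapKO, MI and sham, points for hearts and bars for mean and SD (n = 4, and n = 3 for sham). For all 9 genes the sham hearts lie below every MI heart, and for Bgn the FAPI hearts (656 to 853) and FapKO hearts (491 to 618) form separate bands below the MI hearts (1017 to 1202).

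Taken as a ratio to Dcn in the same library, 6 of the 8 other genes were higher in MI than in sham hearts, where 15.6% of all genes were (limma on log2 ratios). Per length, biglycan stood at 34.5 ± 3.82 for every 100 of decorin in FAPI hearts, 27.8 ± 4.17 in FapKO hearts, 47.8 ± 6.15 in MI hearts and 13.2 ± 2.11 in sham hearts (SD, n = 4, and n = 3 for sham). The single hearts were at 31.1, 39.4, 35.6 and 31.9 for FAPI, 28.3, 32.4, 22.3 and 28.2 for FapKO, 56.3, 48.0, 42.8 and 43.9 for MI and 10.8, 14.8 and 13.9 for sham. All MI hearts lay above all others, and all sham hearts below. The log2 change of the ratio in MI over sham hearts was 1.86 for Bgn (SE 0.183, adjusted p = 1.37e-08), 1.88 for Fmod (SE 0.247, adjusted p = 9.15e-07) and 1.42 for Aspn (SE 0.269, adjusted p = 8.31e-05), by limma. Prelp (0.88, SE 0.144) and Lum (0.81, SE 0.170) rose less against Dcn, and Chad, with its log ratio damped by the prior count of 2, by 1.85 (SE 0.371). Ogn (0.43, SE 0.208, adjusted p = 0.0714) and Omd (0.34, SE 0.181, adjusted p = 0.104) did not pass limma's test. Ogn was called with a replicate block (0.51, adjusted p = 0.0333) and without MI replicate 3 (0.52, adjusted p = 0.038) or MI replicate 4 (0.59, adjusted p = 0.0163).

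Set against Pdgfra, a surface marker of cardiac fibroblasts, decorin took the opposite sign between MI and sham hearts without passing the test, and the leading genes kept theirs. Pdgfra itself averaged 14.3 ± 1.85 CPM in FAPI, 12.1 ± 0.83 in FapKO, 16.9 ± 0.959 in MI and 8.01 ± 0.161 CPM in sham hearts (SD, n = 4, and n = 3 for sham). Of the 9 genes, 6 were higher per Pdgfra in MI hearts, against 9.34% of all genes (limma). Bgn (1.51, SE 0.194), Fmod (1.52, SE 0.28), Chad (1.49, SE 0.379) and Aspn (1.06, SE 0.288) rose by more than Prelp (0.52, SE 0.177) and Lum (0.45, SE 0.181). Dcn had a log2 change of −0.36 (SE 0.190, adjusted p = 0.0948), Ogn of 0.07 (SE 0.202) and Omd of −0.02 (SE 0.177), none of which passed. The Lum call was lost without sham replicate 1 (0.37, adjusted p = 0.126), sham replicate 2 (adjusted p = 0.0652) or MI replicate 1 (adjusted p = 0.0797), and the Prelp call without sham replicate 1 (0.43, adjusted p = 0.0686).

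**Figure D3:**
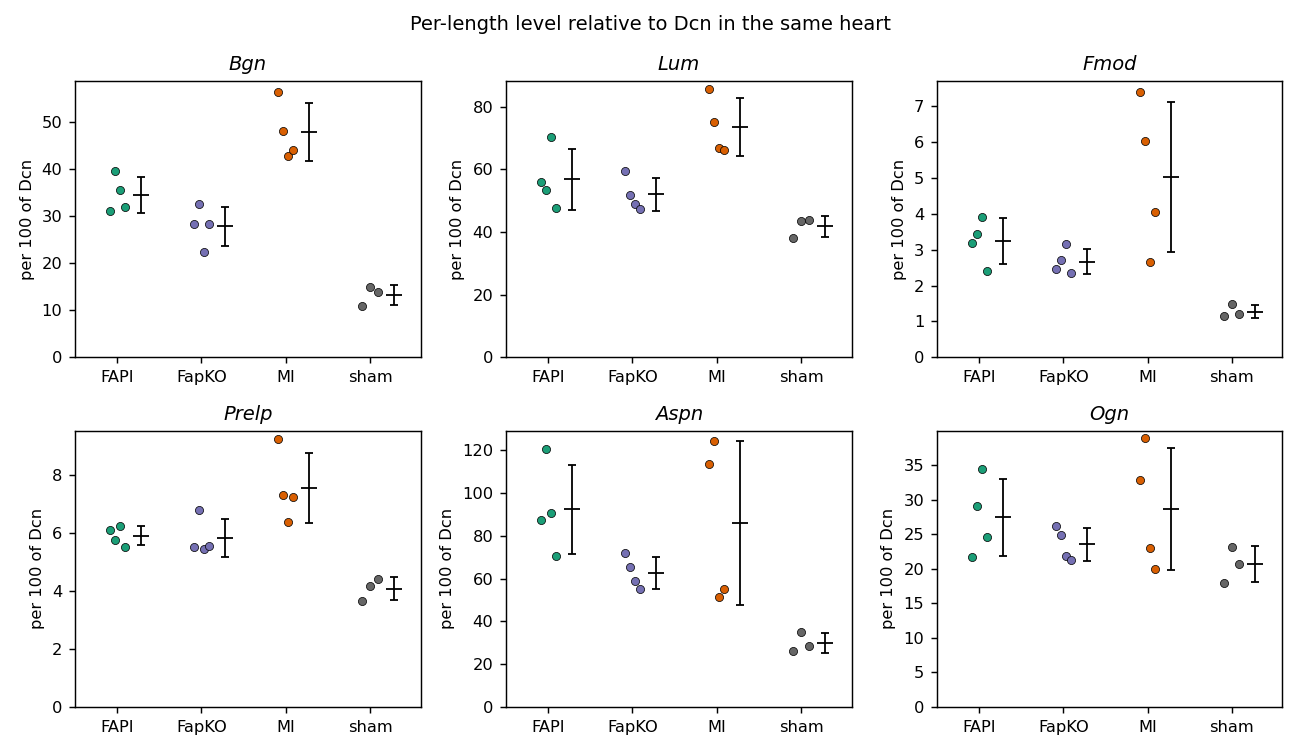
Per-length level of 6 of the genes for every 100 of Dcn in the same heart, with groups in the order FAPI, FapKO, MI and sham, points for hearts and bars for mean and SD (n = 4, and n = 3 for sham). The Bgn ratio is 42.8 to 56.3 in MI hearts and 10.8 to 14.8 in sham hearts, while the Ogn ratio overlaps between all 4 groups.

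The comparison of FapKO with MI hearts asked what loss of Fap does after infarction. Of the 9 genes, 8 were lower in FapKO hearts, where 26.0% of all genes were called lower, and decorin was the exception. The groups did not overlap for Bgn, Lum, Ogn and Prelp, against 22.8% of all genes lower without overlap. The median log2 fold change of the 9 was −0.67, against −0.08 for all genes tested. In the same hearts cardiomyocyte markers rose (9 of 9), while macrophage (8 of 8), activated fibroblast (6 of 6), adipocyte (4 of 5) and fibroblast markers (4 of 8, 1 higher) fell. Fibroblast markers, with Col1a1 and Col1a2 counted, summed to 5084 to 5754 CPM in FapKO and 9646 to 14700 CPM in MI hearts. Since only 4 of the 8 were called lower, the sum does not stand for every marker. The part of these markers was not tested.

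Bgn was 2.02-fold lower, with 551 ± 55.2 CPM in FapKO hearts and 1115 ± 78.4 CPM in MI hearts (SD, n = 4 each). On the log2 scale the difference was −1.02 (SE 0.130, edgeR adjusted p = 1.04e-05), smaller than that of all but 7.86% of genes. Fmod fell by 1.12 (SE 0.238, adjusted p = 0.000954) and Lum by 0.73 (SE 0.145, adjusted p = 0.000541) on the log2 scale, both collagen-binding class II genes. Prelp fell by 0.60 (SE 0.129, adjusted p = 0.000985), and Chad, the scarcest gene, by 1.36 (SE 0.394, adjusted p = 0.00877). Aspn fell by 0.67 (SE 0.231, adjusted p = 0.0238), Ogn by 0.51 (SE 0.164, adjusted p = 0.0168) and Omd by 0.44 (SE 0.154, adjusted p = 0.0253), the 3 genes of the chromosome 13 group. Dcn averaged 1911 ± 147 CPM in FapKO and 2251 ± 190 CPM in MI hearts (log2 −0.24, SE 0.129, edgeR adjusted p = 0.138). The 3 calls on chromosome 13 hung on single hearts. Aspn was lost without MI replicate 1 (−0.56, adjusted p = 0.0732), MI replicate 2 (−0.44, adjusted p = 0.105) or FapKO replicate 4 (−0.62, adjusted p = 0.0603), Ogn without MI replicate 2 (−0.34, adjusted p = 0.0729), and Omd without MI replicates 1 or 3 or FapKO replicates 1, 2 or 4 (adjusted p up to 0.0852). With total-count scaling Dcn was also called lower (−0.79, adjusted p = 0.000158).

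Against Dcn in the same library, 5 of 8 genes were lower in FapKO than in MI hearts, where 11.4% of all genes were (limma). The log2 change of the ratio was −0.78 for Bgn (SE 0.169, adjusted p = 0.000756), −0.82 for Fmod (SE 0.229, adjusted p = 0.00623), −0.50 for Lum (SE 0.158, adjusted p = 0.0145), −1.16 for Chad (SE 0.344, adjusted p = 0.0095) and −0.37 for Prelp (SE 0.133, adjusted p = 0.0312). Aspn, Ogn and Omd, of the chromosome 13 group, lay between −0.22 and −0.35 and did not pass. Prelp lost its call with a replicate block (−0.37, adjusted p = 0.0559) and without MI replicates 1 or 2 or FapKO replicates 1, 3 or 4 (adjusted p up to 0.106). Against Pdgfra, Bgn (−0.54, SE 0.180, adjusted p = 0.0154) and Chad (−0.92, SE 0.351, adjusted p = 0.0338) were lower, 2 of 9 genes against 5.92% of all genes (limma). The Bgn call was lost without FapKO replicate 3 (adjusted p = 0.0523), and the Chad call without MI replicates 1 or 2 or FapKO replicates 1, 2 or 4 (adjusted p up to 0.123). Pdgfra itself was lower in FapKO than in MI hearts (log2 −0.48, SE 0.0971, edgeR adjusted p = 0.000677).

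FAPI hearts were compared with the same 4 MI hearts. Bgn and Prelp were lower, 2 of 9 genes where 11.9% of all genes were called lower, and Bgn alone did not overlap, against 10.5% of all genes. The median log2 fold change of the 9 was −0.36, against −0.03 for all genes tested. Cardiomyocyte markers were higher in FAPI hearts (9 of 9), and adipocyte (5 of 5), macrophage (5 of 8), fibroblast (3 of 8) and activated fibroblast markers (2 of 6) were lower. Adipocyte markers summed to 6.90 to 43.5 CPM in FAPI and 135 to 271 CPM in MI hearts. Fibroblast markers, with Col1a1 and Col1a2 counted, summed to 5174 to 8155 CPM in FAPI and 9646 to 14700 CPM in MI hearts. The part of these markers was not tested. Bgn averaged 792 ± 91.5 CPM in FAPI and 1115 ± 78.4 CPM in MI hearts (SD, n = 4 each), a difference of −0.49 on the log2 scale (SE 0.129, edgeR adjusted p = 0.00895). Prelp averaged 81.3 ± 14.6 CPM in FAPI and 105 ± 12.3 CPM in MI hearts (log2 −0.36, SE 0.128, adjusted p = 0.0418). Fmod (−0.63, SE 0.235, adjusted p = 0.0527) and Lum (−0.38, SE 0.144, adjusted p = 0.0577) had the same sign and did not pass edgeR's test. Both were called with 1 CPM in 3 libraries (adjusted p = 0.0482 for Fmod and 0.0493 for Lum), with DESeq2 (0.0385 and 0.0297) and without MI replicate 3 (0.00323 and 0.0476) or FAPI replicate 3 (0.0391 and 0.0155). Fmod was also called with no filter (0.00595), and Lum with limma-voom (0.0441), the replicate block (0.0472) and without FAPI replicate 1 (0.0357). Dcn (−0.03, SE 0.129), Ogn (−0.08, SE 0.164), Omd (0.14, SE 0.150) and Aspn (0.10, SE 0.230) had differences smaller than their errors, and Chad was at −0.74 (SE 0.369, adjusted p = 0.141). The Prelp call was lost without MI replicates 1, 2 or 4 or FAPI replicates 2 or 4 (−0.39 to −0.29, adjusted p up to 0.14), while total-count scaling called 7 of the 9 lower, Dcn among them (−0.43, adjusted p = 0.0183), and turned the signs of Omd (−0.25) and Aspn (−0.33).

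No gene of the set passed limma's test on the ratio to Dcn between FAPI and MI hearts (0 of 8, and 4 at an unadjusted p under 0.05), where 5.59% of all genes were called lower. Bgn was nearest to it, with a log2 change of −0.47 (SE 0.169, adjusted p = 0.0556). Relative to Pdgfra, limma likewise called 0 of 9, with 1 at an unadjusted p under 0.05, where 1.79% of all genes were lower, and changes ran from −0.48 for Chad to 0.40 for Aspn. Without MI replicate 3, limma called 3 genes lower against Dcn (Bgn, Fmod and Prelp) and Fmod lower against Pdgfra (−0.63, adjusted p = 0.0379). Without FAPI replicate 3, Lum alone was lower against Dcn (−0.49, adjusted p = 0.0416).

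FAPI and FapKO hearts were compared directly, since both contrasts above share their MI hearts. Bgn, Omd and Aspn were higher in FAPI hearts, 3 of 9 genes where 7.05% of all genes were called higher. The log2 fold change of FAPI over FapKO was 0.52 for Bgn (SE 0.129, adjusted p = 0.0144), 0.58 for Omd (SE 0.153, adjusted p = 0.0199) and 0.77 for Aspn (SE 0.231, adjusted p = 0.0372), by edgeR. Bgn, Ogn and Aspn did not overlap between the groups, against 9.77% of all genes higher without overlap, although Ogn missed the threshold (0.43, SE 0.164, adjusted p = 0.0939). For the other 5 genes the difference was 0.21 to 0.62 and did not pass. Macrophage (6 of 8) and activated fibroblast markers (4 of 6) were higher in FAPI than in FapKO hearts. Adipocyte (3 of 5), cardiomyocyte (2 of 9) and fibroblast markers (1 of 8) were lower, where 6.12% of all genes were called lower. Macrophage markers summed to 1582 to 2090 CPM in FAPI and 906 to 1398 CPM in FapKO hearts, and the part of these markers was not tested. The Aspn call was lost without any of FAPI replicates 1 to 3 or FapKO replicates 1 to 4 (0.66 to 0.81, adjusted p 0.0646 to 0.0975). Bgn was lost without FapKO replicate 3 (adjusted p = 0.0576), and Omd without FAPI replicate 3 or FapKO replicates 1 or 4 (adjusted p up to 0.0822). Without FAPI replicate 4, Lum (0.47, adjusted p = 0.0239) and Ogn (0.52, adjusted p = 0.0453) were called as well.

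FAPI and FapKO hearts were also set against sham hearts. All 9 genes were higher in FAPI than in sham hearts, where 29.2% of all genes were called, and none of the 9 overlapped, against 30.0% of all genes higher without overlap. They had log2 fold changes of 0.69 for Dcn (SE 0.141) to 2.32 for Aspn (SE 0.270). In FapKO against sham hearts 8 of 9 genes were higher, where 19.2% of all genes were called, and none of the 9 overlapped, against 23.1% of all genes. These ran from 0.48 for Dcn (SE 0.140, adjusted p = 0.0133) to 1.56 for Fmod (SE 0.28, adjusted p = 0.000551), by edgeR, with Bgn at 1.55 (SE 0.146). Chad was at 1.64 (SE 0.657, adjusted p = 0.0582), and its summed counts were 3.15 times as frequent in FapKO as in sham hearts (95% interval 1.56 to 7.21, exact binomial, counting error only). The calls of Dcn and Omd in FapKO against sham hearts were lost without sham replicate 2 (adjusted p = 0.0555 and 0.0705), and that of Ogn without sham replicate 1 (adjusted p = 0.051).

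**Figure D4:**
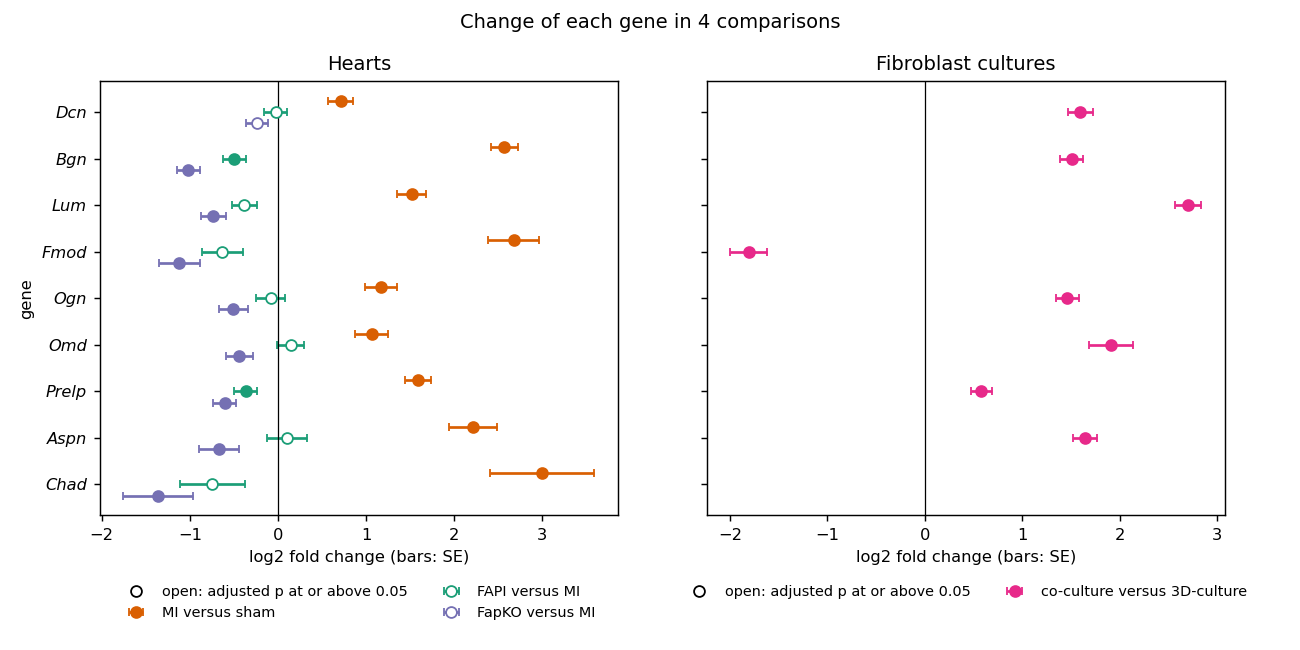
Log2 fold change with SE (bars) of each gene for FAPI over MI, FapKO over MI and MI over sham hearts on the left and for co-culture over 3D-culture fibroblasts on the right, with filled points for adjusted p under 0.05 (edgeR). FapKO over MI runs from −1.36 for Chad to −0.24 for Dcn, and Fmod at −1.81 is the only gene below 0 in the cultures.

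Genes that build, bind or cut these proteins were read from lists beside them. Of all genes tested, 37.1% were higher and 32.0% lower in MI than in sham hearts, 25.0% higher and 26.0% lower in FapKO than in MI hearts, and 17.9% higher and 11.9% lower in FAPI than in MI hearts, and each list count stands against these shares. Fibrillar and associated collagens, the main partners, were higher in MI than in sham hearts in 12 of 12 cases, lower in FapKO than in MI hearts in 10 of 12, and lower in FAPI than in MI hearts in 6 of 12. Col5a2, a chain that starts fibrils, averaged 388 ± 37.3 CPM in FAPI, 208 ± 14.4 in FapKO, 477 ± 50.4 in MI and 69.98 ± 12.8 CPM in sham hearts. Enzymes that attach and modify chondroitin and dermatan sulfate chains were higher in MI than in sham hearts in 15 of 20 tested cases. They were lower in FapKO than in MI hearts in 14 of 20 (1 higher) and lower in FAPI than in MI hearts in 7 of 20. Dse, the epimerase that turns chondroitin into dermatan sulfate, averaged 16.7 ± 2.13 CPM in FAPI, 11.8 ± 0.997 in FapKO, 22.0 ± 1.26 in MI and 6.27 ± 1.05 CPM in sham hearts. Of the keratan sulfate enzymes 5 of 7 were higher and 1 lower in MI than in sham hearts, 4 lower in FapKO and 3 lower in FAPI than in MI hearts. The lower gene was Chst4, a sulfotransferase, at 0.364 ± 0.182 CPM in MI and 3.44 ± 1.38 CPM in sham hearts.

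Bmp1, the protease that trims biglycan and other matrix precursors, had 71.6, 57.5, 55.6 and 39.8 CPM in FAPI hearts, 43.8, 41.4, 33.2 and 41.7 in FapKO hearts, 78.3, 96.4, 72.8 and 80.0 in MI hearts and 20.02, 17.9 and 18.3 CPM in sham hearts. MI hearts lay above all others and sham hearts below. It was lower in FapKO than in MI hearts (log2 −1.03, SE 0.147, adjusted p = 2.85e-05) and in FAPI than in MI hearts (−0.54, SE 0.145, adjusted p = 0.0103, edgeR). Of 9 proteases known to act on these proteins, 7 were higher in MI than in sham hearts, 6 lower in FapKO and 4 lower in FAPI than in MI hearts. Receptors and bound ligands were higher in MI than in sham hearts in 14 of 17 cases (2 lower) and lower in FapKO than in MI hearts in 12 of 17 (2 higher). In FAPI against MI hearts 5 of the 17 were lower and 1 higher. Tgfb1, a bound growth factor, averaged 2.79 ± 0.417 CPM in FAPI, 3.08 ± 0.404 in FapKO, 2.85 ± 0.472 in MI and 1.94 ± 0.322 CPM in sham hearts, and passed in neither contrast with MI hearts (edgeR adjusted p = 0.898 for FAPI and 0.583 for FapKO). Tlr2, a receptor of soluble biglycan, was lower in FapKO than in MI hearts (log2 −1.27, SE 0.130, edgeR adjusted p = 1.56e-06), at 5.76 ± 0.832 CPM in FapKO and 13.9 ± 1.36 CPM in MI hearts.

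Of 9 further genes of the family 6 could be tested in hearts, and 4 were higher and 1 lower in MI than in sham hearts. In FapKO against MI hearts 3 of the 6 were lower, and in FAPI against MI hearts 1 was, Podn (log2 −0.39, SE 0.133, edgeR adjusted p = 0.0374), which encodes podocan. Ecm2, the first gene of the chromosome 13 group, averaged 23.9 ± 2.62 CPM in FAPI, 21.2 ± 3.64 in FapKO, 21.8 ± 3.81 in MI and 11.8 ± 0.857 CPM in sham hearts. It did not pass between FapKO and MI hearts (log2 −0.04, SE 0.136, edgeR adjusted p = 0.815). Kera, between Lum and Epyc, and Epyc and Optc were at or below 0.619 CPM in every heart.

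Within groups, hearts with more of 1 of the 9 genes tended to have more of another. Over the 15 hearts, deviations of log2 CPM from the group mean gave 36 pairwise Pearson correlations of −0.25 to 0.81, with a median of 0.44 and 31 above 0, as a description of hearts that share libraries and scaling. No such median was taken over pairs of all genes, so 0.44 cannot be read as particular to these 9. The closest pairs were Fmod with Aspn (0.81) and Ogn with Aspn (0.80), and Bgn with Omd was lowest (−0.25). Of the chromosome 13 group, Omd was at 0.18 with Ogn and at −0.12 with Aspn. Among 13403 genes of at least 1 CPM, Aspn was most like Slc40a1 (0.95) and Ssc5d (0.94), Bgn most like Vdr (0.93) and Fn1 (0.92), and Dcn most like D130020L05Rik (0.88) and Hs3st1 (0.87). Lum was closest to Dennd1a (0.91) and Gm7429 (0.90), Fmod to Tspan6 (0.90), and Ogn to Nrep (0.88) and Vasn (0.87). Prelp was closest to Fam198b (0.89) and Tvp23b (0.89), Omd to Col4a3 (0.89) and Ccdc166 (0.84), and Chad to 6330403K07Rik (0.80) and Fibin (0.79). These genes were picked as the highest among 13403 over only 15 hearts, and their values were not tested.

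In culture, the comparison of co-culture with 3D-culture asked what endothelial partners do to fibroblasts. Decorin, biglycan, lumican, osteoglycin, osteomodulin, asporin and prolargin were higher in co-culture, and fibromodulin was lower. That is 7 of 8 tested genes higher where 30.3% of 12293 genes were, and 1 lower where 29.5% were. None of the 8 overlapped between groups, against 33.3% of all genes higher and 33.7% lower without overlap. Chad had 0 counts in all 6 libraries, which allows up to 0.524 to 0.727 CPM in co-culture and 0.161 to 0.239 CPM in 3D-culture libraries (3 counts). The median log2 fold change of the 8 was 1.55, against −0.06 for all genes tested. Macrophage markers (8 of 8) and epicardial markers (5 of 6) were lower in the sorted co-culture cells, at summed 61.3 to 83.2 and 27.9 to 33.8 CPM in co-culture against 217 to 287 and 141 to 173 CPM in 3D-culture. Of the fibroblast markers 4 of 8 were higher and 2 lower in co-culture, and of the activated fibroblast markers 1 of 6 was higher and 5 lower. The part of these markers was not tested.

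Lum, the lumican gene, had 531, 570 and 517 CPM in co-culture and 77.3, 97.6 and 73.7 CPM in 3D-culture. It was 6.51-fold higher in co-culture (log2 2.70, SE 0.137, edgeR adjusted p = 1.4e-06). Dcn had 2288, 2694 and 2422 CPM in co-culture and 910, 751 and 784 CPM in 3D-culture, and Bgn 2322, 2400 and 2772 CPM against 950, 815 and 870 CPM. Within each condition decorin and biglycan thus stood at nearly the same height as each other. Both were higher in co-culture, with log2 fold changes of 1.60 (SE 0.125) and 1.51 (SE 0.121). Omd had 19.4, 14.5 and 11.3 CPM in co-culture and 4.07, 3.66 and 4.13 CPM in 3D-culture. The spread of Omd within co-culture was wide, and the groups still lay apart (1.91, SE 0.223). Ogn had 184, 171 and 156 CPM in co-culture and 63.6, 55.5 and 65.8 CPM in 3D-culture (1.46, SE 0.119). Aspn, abundant in hearts, was low in culture, with 47.0, 46.5 and 50.6 CPM in co-culture and 15.9, 16.5 and 13.9 CPM in 3D-culture (1.64, SE 0.125).

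Prelp had 781, 812 and 888 CPM in co-culture and 577, 569 and 514 CPM in 3D-culture, the smallest of the increases (0.58, SE 0.107, adjusted p = 0.00156). Fmod had 7.03, 5.81 and 4.71 CPM in co-culture and 21, 22.0 and 18.0 CPM in 3D-culture, from 26 to 29 counts a library in co-culture. It fell by 1.81 on the log2 scale (SE 0.188, edgeR adjusted p = 5.85e-05) while its chromosome 1 neighbour Prelp rose. Without the 3D-culture library of replicate 2, all 8 genes kept their call and sign, with values from −1.78 for Fmod to 2.81 for Lum. With total-count scaling the Prelp call was lost (0.24, adjusted p = 0.237), and 32.7% of the called genes were higher, in place of 50.7%.

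**Figure D5:**
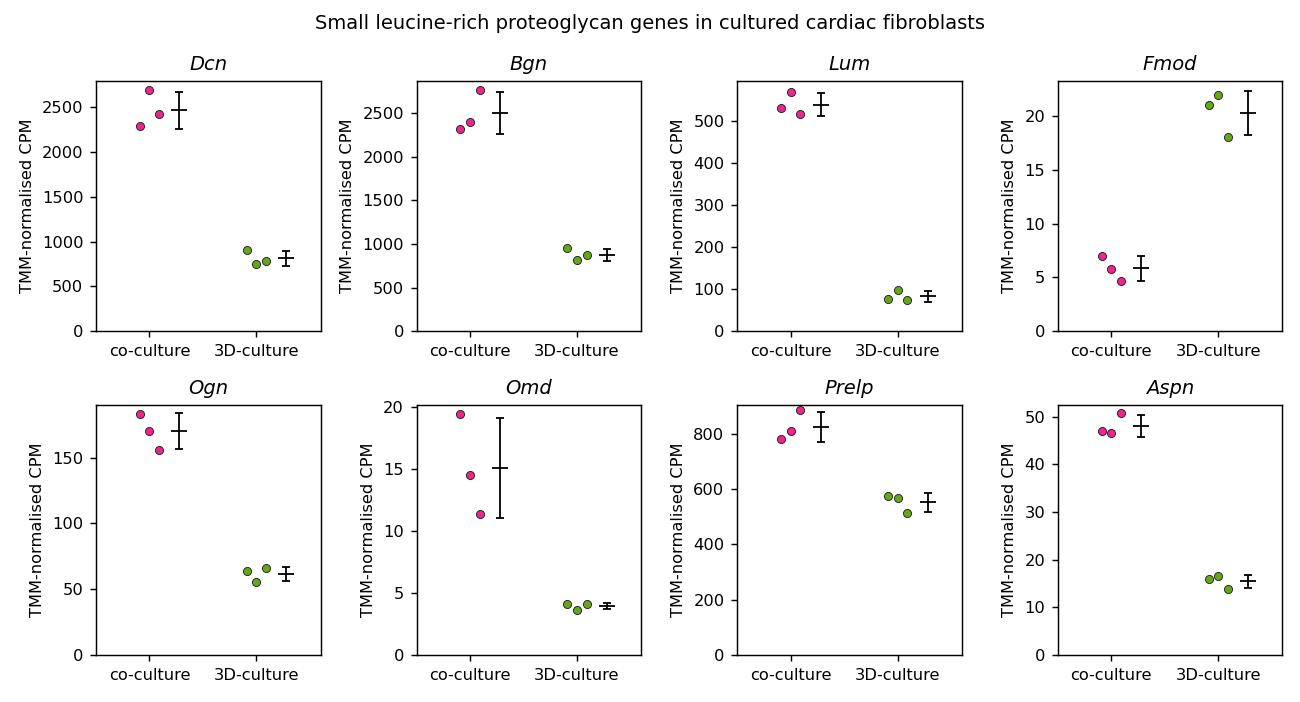
TMM-normalised CPM of the 8 genes with counts in each fibroblast library, co-culture left and 3D-culture right, with points for libraries and bars for mean and SD (n = 3 each). Lum lies at 517 to 570 in co-culture and 73.7 to 97.6 in 3D-culture, and Fmod is the gene with the reverse order (4.71 to 7.03 in co-culture, 18.0 to 22.0 in 3D-culture).

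Of 7 cultured genes set against Dcn in the same library, 1 was higher, 2 were lower and 4 did not pass. Not passing, with 3 libraries per group, does not show that a ratio was unchanged. Pdgfra, on which the co-culture cells were sorted, averaged 105 ± 8.36 CPM in co-culture and 34.4 ± 5.55 CPM in 3D-culture (SD, n = 3 each), and the ratio of Dcn to it did not pass (log2 change −0.01, SE 0.239, limma). Relative to Dcn, Bgn (−0.09, SE 0.147), Ogn (−0.14, SE 0.151), Omd (0.25, SE 0.256) and Aspn (0.03, SE 0.171) likewise did not pass limma's test. Lum rose against Dcn (1.11, SE 0.169, adjusted p = 0.000104), where 4.71% of all genes did. Fmod (−3.38, SE 0.228, adjusted p = 4.54e-07) and Prelp (−1.02, SE 0.143, adjusted p = 5.44e-05) fell against Dcn, where 82.1% of all genes did. Against Pdgfra the same 3 genes passed, with Lum at 1.10 (SE 0.192) where 4.54% of all genes were higher, and Fmod at −3.39 (SE 0.248) and Prelp at −1.03 (SE 0.208) where 82.1% were lower. Without the 3D-culture library of replicate 2, Bgn (−0.28, adjusted p = 0.0462) and Ogn (−0.35, adjusted p = 0.0437) were also lower against Pdgfra.

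The cultured pool had another make-up from that of hearts. Per length, Prelp held 16.6% ± 0.70 of the 9 genes in co-culture and 30.1% ± 1.42 in 3D-culture (SD, n = 3 each), while it was 1.63% to 2.44% in every heart. Aspn held 1.48% ± 0.0695 in co-culture and 1.29% ± 0.107 in 3D-culture, and Bgn 29.7% ± 2.15 and 28.3% ± 1.22. Lum held 16.0% ± 0.945 in co-culture and 6.67% ± 1.19 in 3D-culture. Hearts and cultures were made from different inputs and were not tested against each other. Among partners in culture, 3 of 12 collagen genes were higher and 2 lower in co-culture, where 30.3% and 29.5% of all genes were, and the protease gene Mmp2 was higher (log2 3.07, SE 0.140, edgeR adjusted p = 1.07e-06), at 871 ± 115 CPM in co-culture and 104 ± 9.75 CPM in 3D-culture.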

How the data were processed

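The authors deposited raw counts per gene, 1 file per library, made with STAR and HTSeq on mm10 per the submitters' processing notes, which give no versions here. Libraries followed a modified Smart-seq2 protocol with molecular identifiers, per the labels' protocols, and the sources used here do not say whether counting used strand. Each file held 53801 identifiers and 0 rows that name no gene. Library totals were 18474138 to 37287355 counts in hearts and 4735337 to 15650221 in fibroblasts, and 6 columns of a series table that no label names were not used. The 15 hearts were fitted together, and the 6 fibroblast libraries apart, with edgeR 4.0.16 in R 4.3.3 (filterByExpr, TMM scaling, quasi-likelihood test, Benjamini-Hochberg adjustment over all genes, threshold 0.05). Shared fits give all groups 1 estimate of spread. Log2 ratios to Dcn or Pdgfra in the same library (prior count 2) were tested with limma 3.58.1, and an error in either gene moves every ratio. The fits were also run on simulated counts with known changes in a small share of genes, which does not test the scaling between these groups. Alternatives were DESeq2 1.42.0, limma-voom, other scalings and filters, the 2 groups alone, a replicate block and leaving out each library. Positions and lengths came from GENCODE M21, with each length the union of all annotated exons of a gene and not that of 1 transcript. Intervals cover counting error only. All 9 members are named, other genes by their list, and the 2 genes most like each member by the correlation of deviations from group means among genes of at least 1 mean CPM, of which 1 is not reported here. Members and lists were chosen with earlier results of these data known, and examples within lists after their values were seen. No 2 libraries held the same values.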

Additional observations from a re-analysis of the deposited data

Results flagged for a closer look

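The Bgn level of FAPI replicate 4, 656 CPM, stood apart from the other FAPI hearts, which lay between 828 and 853 CPM. It was the 1 value flagged in 27 tests for a stray sample, each of 1 gene in 1 infarcted group. These tests share the same hearts, and a small share of such tests is flagged by chance. Over all counts the library also stood apart from FAPI replicates 1 and 3, at 100 and 108 chi-square units per degree of freedom. The cause was not tested.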

How the results depend on the processing

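The calls of all 9 genes in MI against sham hearts held under each of the 15 alternatives run. Of 940 gene values from edgeR comparisons under alternatives, 874 kept direction and side of the threshold, 32 lost the call, 24 gained it and 10 turned sign, and of 613 ratio values 550, 16, 12 and 35 did so. Genes called in FAPI against MI hearts (2) numbered 7 with total-count scaling, 4 with 1 CPM in 3 libraries, 4 with DESeq2, 1 with only the 2 groups, 3 with limma-voom and 1 to 4 with 1 library left out. With no filter the count stayed at 2, with Fmod in place of Prelp. With 1 library left out, the other counts ran from 1 to 5 in FAPI against FapKO hearts, 0 to 3 relative to Dcn and 0 to 1 relative to Pdgfra in FAPI against MI hearts, 1 to 3 relative to Pdgfra in FapKO against MI hearts and 3 to 5 relative to Pdgfra in culture. Total-count scaling turned Omd (−0.25) and Aspn (−0.33) in FAPI against MI hearts.

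Leaving out 1 library turned signs near 0, where the cause was not tested. In FAPI against MI hearts Dcn ran from −0.12 to 0.026, Ogn from −0.22 to 0.093 and Aspn from −0.071 to 0.33, relative to Dcn Ogn from −0.19 to 0.13 and Aspn from −0.019 to 0.40, and relative to Pdgfra Lum from −0.26 to 0.012 and Prelp from −0.25 to 0.00033. Relative to Pdgfra, Ogn ran from −0.086 to 0.19 and Omd from −0.10 to 0.036 in MI against sham hearts. In FapKO against MI hearts Ogn ran from −0.12 to 0.16, Omd from −0.11 to 0.13 and Aspn from −0.34 to 0.10 relative to Pdgfra. In culture Aspn ran from −0.030 to 0.14 relative to Dcn, and relative to Pdgfra Dcn ran from −0.19 to 0.11, Omd from −0.0034 to 0.49 and Aspn from −0.058 to 0.076.

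Samples of different groups share only a replicate number. A replicate block gave 9 called genes in MI against sham, 2 in FAPI against MI, 8 in FapKO against MI, 3 in FAPI against FapKO, 9 in FAPI against sham and 8 in FapKO against sham hearts, and 8 in culture. With the block, Lum was called (−0.40, edgeR adjusted p = 0.0472) and Prelp was not (−0.37, adjusted p = 0.0582) in FAPI against MI hearts, and relative to Dcn Ogn was called in MI against sham (0.51) and Prelp was not in FapKO against MI hearts (−0.37), and relative to Pdgfra Omd turned to 0.059 in MI against sham hearts. Deviations of same-numbered FAPI and MI hearts correlated at −0.212 to 0.135 across 17064 genes, and those of FapKO and MI hearts at 0.0648 to 0.322. Depth limits Chad, with 3 counts in each sham heart and 0 in culture.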
